A study of Mus musculus with 4 samples.

Results

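The enzymes that add methyl and acetyl groups to histones, and those that take them off, were followed across 4 RNA-seq libraries of mouse T helper 17 (Th17) cells. Th17 cells are a CD4 helper subset named for the cytokine IL-17, and the cells used were primary cells of strain C57BL/6NJ, differentiated from CD4 T cells per the labels. All 4 libraries belong to 1 group, with age unknown and sex not collected, and the labels give no second cell type, treatment or control. They number the libraries as biological replicates 1 to 4 under 1 donor entry, without saying whether the cells came from separate mice or cultures, so the spread between libraries may be technical in part. Each table's header speaks of 24 hours, which no label mentions. Members were the autosomal protein-coding genes whose symbol begins with Kmt, Kdm, Setd, Kat, Hdac, Sirt or Prmt followed by a digit, together with Ep300 and Crebbp. This gave 65 genes of the 50600 in the tables, or of 21764 protein-coding ones, on all 19 autosomes. The symbol rule leaves out X-linked and Y-linked relatives and enzymes with other names.

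Total counts ran from 19332509 to 48558772 read pairs per library, and the 65 genes took between 0.62% and 0.631% of them. Levels are given as TPM, the usual length-scaled share of transcripts, which divides counts by exon length to put genes on a common scale. That length is deposited per gene and covers its annotated exons. Which transcripts of a gene the cells used was not tested, so comparisons between genes depend on these lengths. Of the Th17 markers, Il17f stood at 492 ± 71.4 TPM and Il17a at 46.04 ± 6.13 TPM (SD, n = 4). All 7 genes of the Th17 and CD4 T cell list lay above 1 TPM, where 45.9% of all protein-coding genes did. Of 11 autosomal markers of other cells 10 lay below 1 TPM, where 51.7% of all protein-coding genes did. Ms4a1 of B cells stood at 0.00777 ± 0.0155 TPM and Lyz2 of macrophages at 0, while Epcam of epithelia was above at 1.54 ± 0.177 TPM. Foxp3, the listed marker of regulatory T cells, lies on the X chromosome and was left out of this count. The libraries stood apart in genes of the sex chromosomes: Y-linked Ddx3y gave 77.8, 58.9, 0.240 and 0.0925 TPM and Xist, the RNA of the inactive X chromosome, 0.916, 1.01, 154 and 152 TPM in replicates 1 to 4. Replicates 1 and 2 were high in the first of these and low in the second, and replicates 3 and 4 the reverse. The labels, with 1 donor entry for all 4 libraries and sex not collected, do not mention this difference, and its origin was not tested. In such bulk RNA, a smaller share of cells with a transcript and less of it per cell cannot be told apart.

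Histone tails carry methyl groups on lysine and arginine and acetyl groups on lysine. SET domain enzymes (the Kmt and Setd families) methylate lysine and Prmt enzymes methylate arginine, while amine oxidase and Jumonji C (JmjC) demethylases, the Kdm family, remove methyl groups from lysine. Acetyltransferases such as the Kat family, Ep300 and Crebbp open chromatin at enhancers and promoters, and the zinc-dependent Hdac and the NAD-dependent Sirt families reverse this. Many of these proteins also modify targets other than histones. In T helper cells the marks they set are known to accompany the opening of cytokine genes and the closing of those of other subsets.

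The 65 genes were almost all expressed, and the arginine methyltransferases took the largest part of their transcripts. Each level was tested against 1 TPM by edgeR's quasi-likelihood method, adjusted by Benjamini and Hochberg over all protein-coding genes. At an adjusted p under 0.05, 61 of 65 members lay above and 4 below. Of all protein-coding genes, 45.9% were called above and 51.7% below. The median member stood at 35.6 TPM, against 0.545 TPM over all autosomal protein-coding genes. Among genes called above 1 TPM the medians were 36.5 TPM for the 61 members and 32.5 TPM for the 9665 autosomal genes, so the expressed members lay near the middle of expressed genes. Only 5 members averaged over 100 TPM (7.69% of members, against 9.62% of autosomal protein-coding genes). These were Prmt1, Prmt5, Hdac7, Hdac2 and Hdac1. Among genes called above 1 TPM, 5 of 61 members averaged over 100 TPM, a smaller share than the 1984 of 9665 autosomal genes. At a level of 10 TPM, a line chosen after the values were seen, 55 members lay above, 8 below and 2 on neither side, where 35.2% of protein-coding genes were above and 63.5% below.

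Summed over its members, the arginine methyltransferase group reached 1073 ± 26.2 TPM (SD, n = 4), or 29.9% of the 3588 ± 29.2 TPM that all 65 genes reached together. Next came the acetyltransferases at 503 ± 10.8 TPM, the class I deacetylases at 439 ± 8.14 TPM and the JmjC demethylases at 383 ± 8.83 TPM. The class II and IV deacetylases summed to 275 ± 9.39 TPM, the other SET domain proteins to 231 ± 7.29 TPM, the sirtuins to 198 ± 3.58 TPM and the H3K4 methyltransferases to 191 ± 5.38 TPM. The smallest sums were 169 ± 3.10 TPM for the H3K36 and H4K20 methyltransferases and 125 ± 4.99 TPM for the pair of amine oxidases. The groups hold between 2 and 13 genes, so a sum reflects their number too, and enzymes with other symbols or on the sex chromosomes are in none of them.

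**Figure D1:**
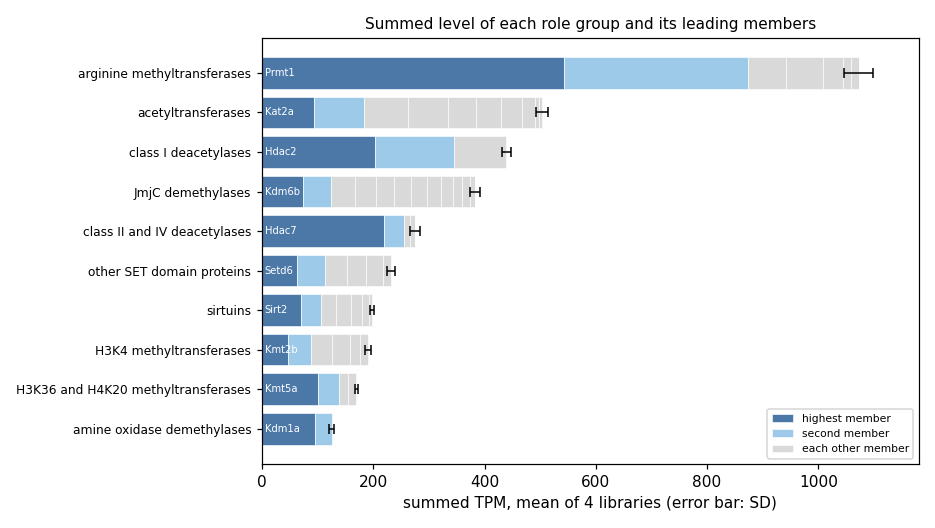
Summed TPM of each role group (x axis, mean of 4 libraries, error bar SD), split into its highest member (dark, named, with full exon lengths), its second member (light blue) and each other member (grey). Prmt1 makes up 50.6% of the arginine methyltransferase sum and Hdac7 80.1% of the class II and IV sum, whereas no JmjC demethylase passes 19.3% of its group.

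Prmt1 was the most abundant of all 65 genes. It makes most of the asymmetric dimethylarginine in mammalian cells, on histone H4 and on many RNA-binding proteins. Prmt1 (ENSMUSG00000109324, mm10 chromosome 7, 44975989 to 44986568) gave 561, 526, 526 and 557 TPM in replicates 1 to 4, a mean of 543 ± 19.4 TPM (SD, n = 4) that ranked 261 of 21764 protein-coding genes. Prmt5 (ENSMUSG00000023110, mm10 chromosome 14, 54507187 to 54517525), the main source of symmetric dimethylarginine, gave 332, 323, 328 and 338 TPM and ranked 493. Prmt1 was the higher in 4 of 4 libraries, by 1.64 ± 0.0352 times, and no library of Prmt5 overlapped one of Prmt1. Together they made up 81.4% of the group's sum.

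The other Prmt genes were lower. Prmt7, which adds a single methyl group, stood at 69.5 ± 4.16 TPM (SD, n = 4) and Prmt3, a cytosolic enzyme that methylates a ribosomal protein, at 65.4 ± 2.49 TPM. Prmt6, which methylates arginine in the tail of histone H3, stood at 36.8 ± 0.568 TPM. Prmt2 and Prmt9 were near each other at 14.6 ± 0.536 TPM and 13.7 ± 0.760 TPM, with ranges over libraries of 14.003 to 15.03 TPM and 12.9 to 14.7 TPM, which overlap. Prmt8, a membrane-anchored enzyme of the brain and the closest relative of Prmt1, had no read pair in any library.

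Prmt8 and 3 further members, Kdm4d, Hdac9 and Hdac11, were below 1 TPM. The absence of counts for Prmt8 (ENSMUSG00000030350, mm10 chromosome 6, 127689011 to 127769472) allows a level of up to 0.0257 TPM, taken as 3 counts over the 4 libraries, and against that limit Prmt1 stood at least 21154-fold higher. Kdm4d (ENSMUSG00000053914, mm10 chromosome 9, 14462548 to 14500482), a JmjC demethylase best known from testis, had 3, 0, 0 and 1 read pairs in replicates 1 to 4, or 0.0861, 0, 0 and 0.0240 TPM. Kdm4a, a ubiquitous demethylase of the same family, had 49.9, 51.5, 50.7 and 49.9 TPM. Hdac9 (ENSMUSG00000004698, mm10 chromosome 12, 34047580 to 34917095), a class IIa deacetylase of muscle and brain that is also known to restrain regulatory T cells, had 3, 0, 8 and 1 read pairs, or 0.0168, 0, 0.0524 and 0.00468 TPM. Hdac11 (ENSMUSG00000034245, mm10 chromosome 6, 91156665 to 91174692), the single class IV deacetylase, had 10, 8, 1 and 4 read pairs, or 0.213, 0.359, 0.0250 and 0.0714 TPM, highest in replicate 2 and lowest in replicate 3. The edgeR adjusted p for a level below 1 TPM was 0.000117 for Prmt8, 0.000196 for Kdm4d, 0.00129 for Hdac9 and 0.000308 for Hdac11. DESeq2's Wald test, which gives no p where every count is 0, also placed Kdm4d, Hdac9 and Hdac11 below, as it did 23.9% of the 14060 genes with an adjusted p.

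The promoters of unexpressed and expressed relatives are shown because CpG-rich promoters are usual in widely expressed genes. Each line gives the 250 bases before a RefSeq transcription start (GRCm38.p6, the assembly of mm10), 5′ to 3′ on the gene's strand, with every CG dinucleotide, the site of DNA methylation, in capitals. All 5 lie on the minus strand.
Prmt1, chr7:44986421-44986670: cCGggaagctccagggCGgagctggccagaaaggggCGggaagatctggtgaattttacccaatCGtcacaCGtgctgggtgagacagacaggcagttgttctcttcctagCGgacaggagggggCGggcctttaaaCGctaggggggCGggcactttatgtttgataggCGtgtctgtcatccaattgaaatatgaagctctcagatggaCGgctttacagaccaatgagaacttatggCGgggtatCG
Prmt8, chr6:127769156-127769405: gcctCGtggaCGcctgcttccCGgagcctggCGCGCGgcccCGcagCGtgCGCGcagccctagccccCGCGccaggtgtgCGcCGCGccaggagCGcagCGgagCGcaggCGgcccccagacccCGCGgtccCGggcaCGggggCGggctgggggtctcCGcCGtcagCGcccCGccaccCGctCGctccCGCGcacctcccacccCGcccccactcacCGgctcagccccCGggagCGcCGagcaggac
Kdm4a, chr4:118180044-118180293: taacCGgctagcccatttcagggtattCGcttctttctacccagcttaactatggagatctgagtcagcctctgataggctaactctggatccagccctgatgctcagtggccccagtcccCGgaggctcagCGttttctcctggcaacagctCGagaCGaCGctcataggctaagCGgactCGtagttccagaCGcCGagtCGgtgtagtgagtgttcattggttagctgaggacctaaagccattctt
Kdm4d, chr9:14500483-14500732: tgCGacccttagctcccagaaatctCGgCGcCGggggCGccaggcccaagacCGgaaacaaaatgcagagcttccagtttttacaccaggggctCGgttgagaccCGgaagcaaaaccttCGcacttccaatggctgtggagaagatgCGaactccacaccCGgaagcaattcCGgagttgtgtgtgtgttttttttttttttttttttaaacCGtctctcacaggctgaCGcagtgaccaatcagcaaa
Hdac9, chr12:34917096-34917345: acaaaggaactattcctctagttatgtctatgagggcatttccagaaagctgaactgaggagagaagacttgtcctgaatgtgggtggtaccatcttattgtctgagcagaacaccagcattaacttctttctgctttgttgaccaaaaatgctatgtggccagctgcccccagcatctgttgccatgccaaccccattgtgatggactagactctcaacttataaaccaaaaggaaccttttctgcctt

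The unexpressed Prmt8 held 37 CG in this window and the abundant Prmt1 13. Kdm4d held 14 and Kdm4a 12, while Hdac9 held 0. For Prmt8 and Hdac9 this is the first of 2 listed starts, and Hdac11, not printed, held 17. By the deposited gene spans, the Prmt8 window lies inside its gene and the Prmt1 window partly inside. The windows of Kdm4a, Kdm4d and Hdac9 lie just outside theirs, so the printed windows are not placed alike. Of the 53 members with an entry, the 49 above 1 TPM had a median of 16 CG, from 0 to 56, and 44 of them had at least 10. Over all 27025 RefSeq genes listed the median was 6, with at least 1 CG in 91.7% and at least 10 in 38.2%. That set was not limited to expressed genes, so it is unlike the 49 members. CG reads the same on both strands, and in this small set the count did not order the members by level: 3 of the 4 genes below 1 TPM held 14 or more. Methylation of these sites was not measured.

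**Figure D2:**
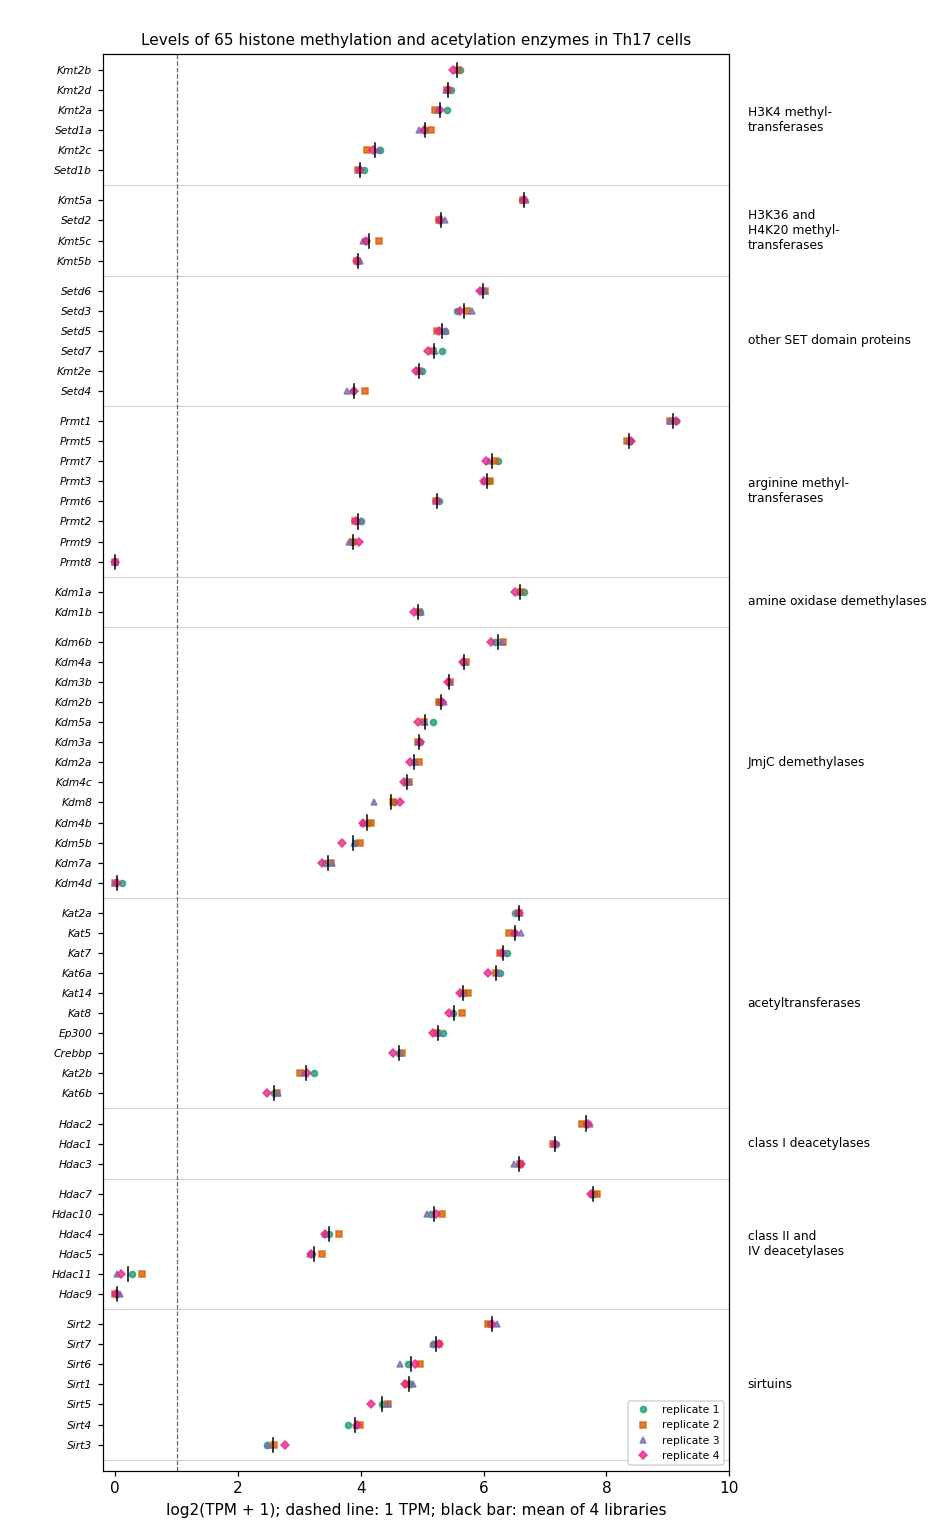
Level of each of the 65 genes (x axis, log2(TPM + 1)) in each of the 4 libraries (symbols), grouped by role and ordered by mean (black bar), with 1 TPM dashed. The 4 symbols of a gene nearly coincide for most genes, Prmt1 stands highest, and Prmt8, Kdm4d, Hdac9 and Hdac11 lie left of the dashed line.

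All 6 H3K4 methyltransferases were above 1 TPM, where 45.9% of all protein-coding genes were. They ran from 14.9 ± 0.5004 TPM for Setd1b to 46.3 ± 1.46 TPM for Kmt2b (SD, n = 4) with the full exon lengths. These enzymes form the catalytic core of the MLL and COMPASS complexes and methylate lysine 4 of histone H3 at promoters and enhancers. Kmt2b, which acts at promoters, had 47.8, 46.8, 46.3 and 44.4 TPM in replicates 1 to 4. Its closest relative Kmt2a (MLL1), which maintains Hox genes and memory T helper cells, had 41.2, 35.98, 37.1 and 38.01 TPM. Kmt2a was the lower of them in 4 of 4 libraries, with a difference (Kmt2a minus Kmt2b) of -0.28 ± 0.08 on the log2(TPM + 1) scale. Without division by exon length, which is 16670 bases for Kmt2a and 9596 for Kmt2b, the difference turned to 0.51.

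Of the enhancer methyltransferases, which place single methyl groups, Kmt2d had 43.2, 41.4, 40.9 and 41.8 TPM and Kmt2c 18.96, 16.2, 18.7 and 17.4 TPM. Kmt2d exceeded Kmt2c 2.36 ± 0.163 times (SD, n = 4), and the libraries of the 2 genes did not overlap. Setd1a, which with Setd1b trimethylates lysine 4 genome-wide, had 32.1, 34.3, 29.98 and 31.8 TPM. Setd1b had 15.6, 14.4, 14.7 and 14.8 TPM. Setd1a exceeded Setd1b 2.15 ± 0.155 times, but the level of Setd1a is uncertain: 51.8% of its exon bases overlap Gm49388 on the same strand, so reads there could be assigned to neither gene. Gm49388 itself averaged 0.0285 TPM. With the overlapped bases left out of its length Setd1a would stand at 66.5 ± 3.66 TPM, above Kmt2b, and the difference was 2.09 ± 0.10 on the log2(TPM + 1) scale, against 1.05 ± 0.10 with the full length. Without division by length the difference was 0.27 ± 0.10.

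Kmt5a, which places the first methyl group on lysine 20 of histone H4 and acts in dividing cells, led its group at 99.8 ± 2.16 TPM (SD, n = 4). It had 97.3, 99.1, 102 and 100.2 TPM in replicates 1 to 4. Kmt5b and Kmt5c, which add further methyl groups there, were far lower. Kmt5b had 14.5, 14.4, 14.9 and 14.4 TPM, against 16.01, 18.7, 15.4 and 15.98 TPM for Kmt5c. Kmt5b was the lower of this pair in 4 of 4 libraries with a difference of -0.17 ± 0.13 on the log2(TPM + 1) scale, and without division by length it turned to 1.59. Setd2, the enzyme of trimethylated lysine 36 of histone H3 in transcribed gene bodies, stood at 38.5 ± 1.18 TPM.

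The other SET domain proteins, several of which act mainly on other targets, were all above 1 TPM, where 45.9% of all protein-coding genes were. Setd6, a methyltransferase of the NF-kappaB subunit RelA, was highest with 61.8, 64.2, 63.98 and 60.3 TPM. Setd3, which methylates a histidine of actin, stood at 50.4 ± 4.03 TPM (SD, n = 4), Setd5 at 38.9 ± 1.91 TPM and Setd7, a methyltransferase of many non-histone proteins, at 35.7 ± 2.42 TPM. Kmt2e, which has a SET domain but no established methyltransferase activity on histones, stood at 29.97 ± 0.925 TPM. Setd4 was lowest with 13.6, 15.7, 12.6 and 13.8 TPM, highest in replicate 2.

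Kdm6b was the highest of the 13 JmjC demethylases among the members, which are the autosomal ones with a Kdm symbol. It removes methyl groups from lysine 27 of histone H3, the mark of Polycomb repression, and is inducible in activated T cells. Of JmjC proteins with other symbols, Riox2, Riox1, Jmjd6 and Phf2 averaged more, at 149.6, 97.9, 83.1 and 82.2 TPM. Jmjd1c and Hr averaged less, at 15.3 and 0.0272 TPM. Kdm6b (ENSMUSG00000018476, mm10 chromosome 11, 69398508 to 69413675) had 71.6, 78.9, 77.7 and 68.2 TPM in replicates 1 to 4, highest in replicate 2 and lowest in replicate 4. Of the demethylases of lysine 9 and lysine 36 of histone H3, Kdm4a exceeded Kdm4c 1.94 ± 0.0403 times (SD, n = 4), with Kdm4c at 25.7, 26.6, 26.7 and 24.97 TPM. Kdm4b was at 16.1 ± 0.754 TPM, and the levels of these 3 did not overlap between libraries.

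Kdm3a and Kdm3b, demethylases of lysine 9 of histone H3, had the lowest coefficients of variation of the members above 1 TPM. Kdm3a had 30.1, 29.7, 29.6 and 30.2 TPM, against 42.5, 42.8, 42.7 and 41.9 TPM for Kdm3b. Kdm3a was the lower in 4 of 4 libraries, with a difference (Kdm3a minus Kdm3b) of -0.49 ± 0.03 on the log2(TPM + 1) scale. Kdm2b, which also brings a Polycomb complex to CpG islands, had 37.6, 37.6, 39.8 and 38.995 TPM, and Kdm2a, its relative at lysine 36, had 28.2, 29.7, 28.4 and 26.9 TPM. Kdm2a was lower than Kdm2b in 4 of 4 libraries, with a difference of -0.43 ± 0.08 on the log2(TPM + 1) scale. Without division by length it was -0.05 ± 0.08, so this order rests on the lengths. Of the demethylases of trimethylated lysine 4, Kdm5a had 34.9, 31.5, 32.1 and 29.6 TPM and Kdm5b 13.9, 14.9, 13.7 and 11.95 TPM. Kdm5a exceeded Kdm5b 2.36 ± 0.178 times, with no overlap.

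Kdm8, a JmjC protein with hydroxylase activity, stood at 21.5 ± 2.72 TPM (SD, n = 4), and Kdm7a, a demethylase of lysines 9 and 27, at 10.03 ± 0.584 TPM. Kdm7a could not be told from 10 TPM (edgeR adjusted p = 0.985). The amine oxidase Kdm1a (LSD1), which removes mono- and dimethyl marks from lysine 4 within repressor complexes, was the highest of the autosomal Kdm genes. Kdm1a (ENSMUSG00000036940, mm10 chromosome 4, 136550540 to 136602723) had 99.7, 96.6, 95.4 and 89.9 TPM, and its relative Kdm1b had 30.2, 29.8, 30.4 and 28.1 TPM. Kdm1a exceeded Kdm1b 3.22 ± 0.0731 times.

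Each pair of closely related acetyltransferases was unequal. Kat2a (GCN5), the catalytic subunit of the SAGA coactivator, had 90.6, 94.5, 95.99 and 94.4 TPM in replicates 1 to 4, and its relative Kat2b (PCAF) had 8.43, 7.03, 7.46 and 7.69 TPM. Kat2a was 12.3 ± 1.16 times as high (SD, n = 4). Kat6a (MOZ) had 75.9, 72.6, 74.2 and 66.5 TPM, against 5.001, 5.24, 5.29 and 4.58 TPM for Kat6b (MORF). Kat6a was 14.4 ± 0.596 times as high, and in both pairs every library of the first gene lay above every library of the second. The log2(TPM + 1) difference was 3.60 for Kat6a minus Kat6b and 3.46 for Kat2a minus Kat2b. Without division by exon length these were 2.92 and 3.03. Kat2b and Kat6b were called below 10 TPM (edgeR adjusted p = 2.09e-06 and 7.06e-15).

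Ep300 and Crebbp, the paired coactivators that acetylate lysine 27 of histone H3 at enhancers, were closer to each other. Ep300 (ENSMUSG00000055024, mm10 chromosome 15, 81585351 to 81652077) had 39.4, 36.9, 37.5 and 35.3 TPM and Crebbp (ENSMUSG00000022521, mm10 chromosome 16, 4081328 to 4213997) 23.6, 24.5, 23.9 and 21.99 TPM. Ep300 was 1.59 ± 0.0680 times as high (SD, n = 4), with no overlap between the libraries of both genes. Both stood below the MYST family enzymes Kat5 (TIP60), which acetylates histones H4 and H2A, at 89.05, 84.2, 96.7 and 90.5 TPM, and Kat7 (HBO1), which acts at replication origins, at 82.04, 76.2, 79.1 and 77.7 TPM. Kat8 (MOF), the enzyme of lysine 16 of histone H4, stood at 45.002 ± 3.10 TPM and Kat14 at 49.9 ± 2.06 TPM. For Kat14, 14.7% of exon bases overlap Pet117 on the same strand, so its level may be understated.

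The 3 autosomal class I deacetylases are nuclear enzymes of the Sin3, NuRD, CoREST and NCoR complexes. Hdac2 (ENSMUSG00000019777, mm10 chromosome 10, 36974544 to 37001889) had 203, 193, 211 and 206 TPM in replicates 1 to 4, Hdac1 (ENSMUSG00000028800, mm10 chromosome 4, 129516104 to 129542713) 145, 139, 141 and 143 TPM, and Hdac3, the NCoR deacetylase, 95.5, 95.4, 89.1 and 96.2 TPM. The 3 genes did not overlap between libraries, and Hdac1 stood at 0.698 ± 0.0226 of Hdac2 (SD, n = 4). This order is uncertain. Hdac1 shares 35.5% of the 50-base words of its transcripts with other genes, mainly the copy Gm10093, and reads that align in several places were not counted. Gm10093 had 7.02, 7.08, 5.64 and 6.53 TPM. With the shared part left out of its length, Hdac1 would stand at 224, 215, 218 and 221 TPM, within the range of the class II enzyme Hdac7, and it exceeded Hdac2 by 0.11 ± 0.05 on the log2(TPM + 1) scale, against -0.52 ± 0.05 with the full length.

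Hdac7 made up 80.1% of the transcripts of the 6 autosomal class II and IV deacetylases. It is a class IIa deacetylase known for its abundance in thymocytes and T cells, where phosphorylation after antigen receptor signals moves it out of the nucleus. Hdac7 (ENSMUSG00000022475, mm10 chromosome 15, 97792664 to 97844502) had 221, 228, 217 and 214 TPM and ranked 835 of 21764 protein-coding genes. Its class IIa relatives were far lower, with Hdac4 at 10.1, 11.5, 9.74 and 9.66 TPM. Hdac5 had 8.27, 9.29, 8.06 and 8.09 TPM. Hdac7 exceeded Hdac4 21.5 ± 1.17 times (SD, n = 4). Their log2(TPM + 1) difference was 4.30, and 2.88 without division by exon length, so its size depends on the lengths. Hdac5 exceeded Hdac9 by 3.21 ± 0.11 on the log2(TPM + 1) scale, a size that depends on the pseudocount, being 6.19 ± 0.34 with a pseudocount of 0.1. Hdac4 could not be told from 10 TPM (edgeR adjusted p = 0.625), and Hdac5 was below it (edgeR adjusted p = 0.000117). Hdac10, a class IIb enzyme that deacetylates polyamines, stood at 35.6 ± 2.62 TPM.

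All 7 sirtuins were above 1 TPM, where 45.9% of all protein-coding genes were. Sirt2, a mainly cytoplasmic deacetylase of tubulin and histone H4, led them. Sirt2 had 67.9, 66.5, 73.3 and 69.7 TPM in replicates 1 to 4, and Sirt1, the nuclear deacetylase of p53 and many transcription factors, 26.8, 25.8, 27.8 and 25.5 TPM. Sirt1 stood at 0.382 ± 0.0126 of Sirt2 (SD, n = 4). The chromatin-bound Sirt6 had 26.3, 30.2, 23.98 and 28.5 TPM, against 35.2, 37.8, 35.1 and 37.9 TPM for the nucleolar Sirt7. Sirt6 was the lower in 4 of 4 libraries, and the ranges of both genes did not overlap. The mitochondrial sirtuins were lowest: Sirt5, a desuccinylase, at 19.5 ± 1.80 TPM, Sirt4 at 14.1 ± 0.858 TPM and Sirt3, the main mitochondrial deacetylase, at 4.52, 5.005, 4.60 and 5.82 TPM. Sirt3 lay below 10 TPM (edgeR adjusted p = 2.67e-13).

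**Figure D3:**
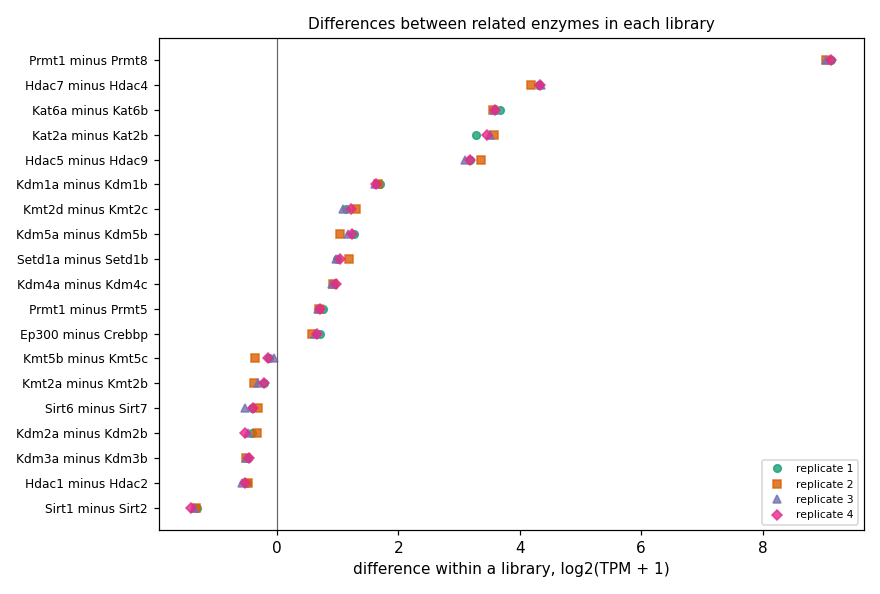
Difference between 2 related enzymes within each library (x axis, log2(TPM + 1), first gene minus second) for the 19 pairs compared, ordered by mean, with 1 symbol per library. Each pair keeps 1 sign in all 4 libraries. Kmt5b minus Kmt5c lies closest to 0, and Prmt1 minus Prmt8 is bounded by the pseudocount because Prmt8 had no count.

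In all, 19 pairs of related enzymes were compared within libraries. Every one kept its sign in all 4 libraries. An exact two-sided permutation test that flips signs gave each pair its smallest possible p of 0.13, the same after Benjamini-Hochberg adjustment over the 19, so no pair could pass 0.05. The size of a difference against its SD over libraries is therefore the measure given here.

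Across the 4 libraries the members varied about as much as other expressed genes. The coefficient of variation of the 61 members above 1 TPM had a median of 4.29% and ran from 0.915% for Kdm3b to 12.6% for Kdm8, and it was under 10% for 59 of them. Over the 9665 autosomal genes above 1 TPM the median was 4.93%. Within 10 to 100 TPM the medians were 4.41% for 52 members and 4.69% for 5581 genes. Whether a gene varied more than genes of like abundance was tested, one-sided, from its negative binomial deviance, with edgeR's trend giving the dispersion and 10 mean counts as the minimum. Of the 61 members tested, 0 passed at a Benjamini-Hochberg adjusted p under 0.05, where 0.272% of 12849 genes did. The 4 members below 1 TPM had too few counts to be tested.

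At an unadjusted p under 0.05 there were 3 members, Setd3, Kdm5b and Kdm6b, or 4.92% of those tested, where 3.75% of all genes reached it. Setd3 had 46.2, 52.3, 55.1 and 47.996 TPM in replicates 1 to 4, highest in replicate 3. With DESeq2's trended dispersion 0 members passed too, where 0.405% of all genes did.

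**Figure D4:**
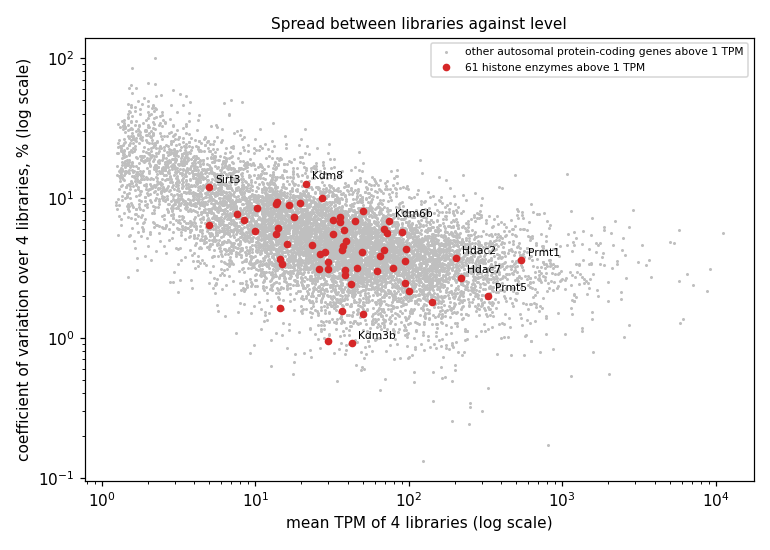
Coefficient of variation over the 4 libraries (y axis, %, log scale) against mean TPM (x axis, log scale) for the 61 members above 1 TPM (red) and the other autosomal protein-coding genes above 1 TPM (grey). The red points lie within the grey cloud, with Kdm8 highest at 12.6% and Kdm3b lowest at 0.915%.

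Genes of the same chemistry with other symbols, and the partner subunits of these enzymes, were mostly above 1 TPM too. Of 21 further histone methyltransferases 19 lay above 1 TPM and 2 below (45.9% and 51.7% of all protein-coding genes), with a median of 31.6 TPM. Carm1, an arginine methyltransferase of histone H3, stood at 160.004 ± 3.46 TPM and Dot1l, the enzyme of lysine 79, at 151.4 ± 2.84 TPM (SD, n = 4), and Mecom was lowest with no count. Of 14 further demethylases and acetyltransferases 13 were above and 1 below, with Hat1, which acetylates new histone H4, at 279.96 ± 7.06 TPM, Naa40, which acetylates the N-terminus of histones, at 209 ± 7.25 TPM and Hr lowest at 0.0272 ± 0.0317 TPM.

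Over all protein-coding genes the share above 1 TPM was 45.9%, for comparison with each partner list. All 25 partner subunits of deacetylase complexes were above 1 TPM. The NuRD subunits Mta2 and Chd4 led them at 362 ± 6.86 TPM and 349 ± 5.96 TPM, and the CoREST subunit Rcor3 was lowest at 1.92 ± 0.0740 TPM. Of 12 MLL and COMPASS partners 11 were above, with Dpy30 at 252 ± 11.1 TPM and Wdr5 at 196 ± 8.95 TPM, subunits shared by all 6 H3K4 methyltransferases. Pagr1a was lowest at 0.0288 ± 0.0342 TPM, but 98.7% of its exon bases overlap other genes on the same strand, so its level cannot be read. Of 29 partners of acetyltransferases 28 were above, with Msl2, a partner of Kat8, at 114 ± 5.50 TPM and the SAGA subunit Taf5l at 91.3 ± 3.07 TPM. Ing4 was lowest at 0.443 ± 0.0807 TPM, and 34.9% of its exon bases overlap Gm44597.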

How the data were processed

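The deposited files hold whole-number counts per gene for 4 Th17 libraries, made by the authors with featureCounts 1.4.6-p4 on the mm10 genome and GENCODE M13, per the file headers. Counting was strand-specific and by read pair, without reads that align in several places or overlap several genes. The assay label says total RNA, whereas the linked library protocol is named for poly(A) RNA, so capture is unsettled. No aligner is given in the sources used here. TPM was computed from the counts and the deposited exon lengths. Symbols and gene types came from GENCODE M21, which matched 50376 of 50600 gene IDs (99.6%). The members, pairs and gene lists were chosen with earlier results of these data known.

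Levels were tested against 1 TPM with edgeR 4.0.16 (quasi-likelihood, R 4.3.3), variation with TMM scaling, pairs on log2(TPM + 1) by exact sign-flip. Alternatives used DESeq2 1.42.0 and limma 3.58.1, other lengths, thresholds, scalings and left-out libraries. Every member was named, with each library's value for pairs and for the highest and lowest of each role group. The tests were checked on simulated data. The p-values speak only for these 4 libraries. In the level and variation tests the spread was modelled over many genes, not taken from each gene alone. Members above 1 TPM had 165 to 27805 counts per library.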

Additional observations from a re-analysis of the deposited data

Results flagged for a closer look

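In 3 of 94 values (65 levels, 19 pair differences and 10 role sums) 1 library lay far from the other 3, the gap to its neighbour divided by the whole range passing Dixon's 95% critical value for 4 samples. Chance alone gives about 1 such value in 20. Hdac3 had 95.5, 95.4, 89.1 and 96.2 TPM in replicates 1 to 4, with replicate 3 low and the gap 0.8865 of the range. Hdac5 had 8.27, 9.29, 8.06 and 8.09 TPM, with replicate 2, the library with the fewest counts, high and the gap 0.8295 of the range. The summed level of the H3K4 methyltransferases was 199, 189, 188 and 188 TPM, with replicate 1 high and the gap 0.8734 of the range. Without replicate 1 this sum averaged 188.3 TPM, against 191 ± 5.38 TPM over all 4 libraries (SD). Neither Hdac3 nor Hdac5 passed the edgeR-based test of variation between libraries, and no cause was tested.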

How the results depend on the processing

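No paired analysis was possible because the study has 1 group. The count of members above 1 TPM was 61 under 11 of 12 alternatives, which include leaving out each library in turn, and 55 at 10 TPM. The count below was 4, or 3 with DESeq2, which gives no p for Prmt8. It was 0 with a mean of at least 10 counts, because the 4 genes were then not tested, and 8 at 10 TPM. No member varied between libraries under any of the 8 alternatives. Pair differences changed sign in 3 of 133 recomputations: Kmt2a minus Kmt2b was 0.51 and Kmt5b minus Kmt5c 1.59 without division by length, and Hdac1 minus Hdac2 was 0.11 with the shared part left out of the length. Kdm2a minus Kdm2b shrank to -0.05 without division by length and did not keep 1 sign in all libraries. The shared-length alternative, and the 10 TPM level, were chosen after seeing the data. With TPM taken over protein-coding genes alone, which makes the denominator smaller, the sums were 1116 TPM for arginine methyltransferases, 524 for acetyltransferases, 457 for class I deacetylases, 399 for JmjC demethylases, 286 for class II and IV deacetylases, 241 for other SET domain proteins, 206 for sirtuins, 199 for H3K4 methyltransferases, 176 for H3K36 and H4K20 methyltransferases and 130.1 for amine oxidases. With shared sequence left out of the lengths, class I deacetylases summed to 517 TPM and H3K4 methyltransferases to 225 TPM. Other sums moved by less than 1 SD, with each library left out too. The 4 genes below 1 TPM rest on 0 to 10 counts per library.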

Other observations

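Relatives of these enzymes on the sex chromosomes are not among the 65 genes. Kdm6a, the X-linked demethylase of lysine 27 of histone H3, gave 21.03, 18.9, 31.8 and 33.5 TPM in replicates 1 to 4, and Kdm5c, an X-linked demethylase of lysine 4, gave 98.6, 93.8, 133 and 131 TPM. Both were lower in replicates 1 and 2 than in replicates 3 and 4. Kdm5d, the Y-linked counterpart of Kdm5c, gave 8.77, 7.32, 0.0190 and 0.0498 TPM, and Uty, the Y-linked counterpart of Kdm6a, gave 6.82, 6.46, 0.00981 and 0.0210 TPM. These were high in replicates 1 and 2 and near 0 in replicates 3 and 4, as Ddx3y was. All 4 passed the test of variation between libraries at edgeR's trended dispersion, with an adjusted p of 9.9e-14 for Kdm6a, 8.28e-07 for Kdm5c, 2.14e-249 for Kdm5d and 7.51e-161 for Uty. Their autosomal relative Kdm6b, by contrast, had 71.6, 78.9, 77.7 and 68.2 TPM, an order that does not separate replicates 1 and 2 from 3 and 4. The X-linked deacetylases Hdac6 and Hdac8 had 15.6, 14.6, 13.9 and 13.4 TPM and 10.6, 11.3, 9.23 and 11.8 TPM, and neither passed that test.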
